A study of Mus musculus with 16 samples.

Results

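The Reg family of small secreted C-type lectins was followed in mouse colon with and without colitis. The symbols Reg1, Reg2, Reg3a, Reg3b, Reg3d, Reg3g and Reg4 were looked for among the 5171 distinct genes of the 4 deposited tables. Of these 7 symbols, Reg3b and Reg3g were found, and Reg1, Reg2, Reg3a, Reg3d and Reg4 were in no table and were not analysed here. Each table holds the genes that passed the authors' threshold in 1 comparison. Both Reg3b and Reg3g were listed in 1 table, that of colitis against control in wild type (WT) mice. Their difference in WT was therefore a condition of being listed and is described without support from that listing.

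RNA was taken from whole colon tissue of C57BL/6 mice. WT mice were compared with mice in which Cre under the villin promoter (Vil-Cre) had removed Smarcad1, a chromatin remodelling ATPase, from the intestinal epithelium (KO). The KO mice came from 1 line, derived from a single targeted embryonic stem cell clone, and villin drives Cre in epithelial cells, so the other cells of the tissue kept the gene. All mice, untreated controls included, had received an enriched microbiota through bedding and shared air of donor mice from another facility, starting 2 weeks before colitis was induced. For colitis, mice drank water with 1% dextran sodium sulphate (DSS), which erodes the mucus layer of the colon, for 15 days, and control mice were left untreated. Each genotype had 3 control and 5 colitis libraries, and the age of the mice was not given in the sources used here.

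The deposited values were 1 mean per group in log2 RPM (reads of a gene per M reads of the library), with no value of a single library. These tables give no spread between mice, so no test was run on any value below, and differences between means are given as a description. From the steps between the lowest means, libraries of WT control held 10.1 M reads as a geometric mean, those of KO control 9.77 M, WT colitis 8.005 M and KO colitis 9.87 M. A level of 3 reads per library, taken as the floor, was −1.75, −1.70, −1.42 and −1.72 log2 RPM in the same order. Smarcad1, the targeted gene, was at 5.77 log2 RPM in WT control, 4.59 in KO control, 5.68 in WT colitis and 4.55 in KO colitis. The difference between KO and WT was thus −1.18 in controls and −1.13 in colitis on the log2 scale, with RNA from the cells that kept the gene included. Reads over exons that were not cut out may also come from the epithelial cells, and the 2 sources cannot be told apart here.

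Reg3 proteins are made by epithelial cells of the gut and secreted into the mucus. Reg3g binds peptidoglycan and kills Gram-positive bacteria, and helps to keep bacteria away from the epithelial surface, while Reg3b has been linked to defence against Gram-negative bacteria. Both genes are induced by microbes and by interleukin 22, which acts through its receptor on epithelial cells and the transcription factor Stat3, and both are known to be low in healthy colon and strongly induced in colitis.

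Reg3b (ENSMUSG00000071356) spans positions 78370657 to 78373466 of chromosome 6 (GRCm38, plus strand). Reg3g (ENSMUSG00000030017) spans 78466269 to 78468872 of the same chromosome on the minus strand. Both are protein coding. They are 92802 bases apart, with 4 other Reg genes, Reg3d, Reg3a, Reg2 and Reg1, between them, while Reg4 is on chromosome 3. No listed gene other than the pair itself lay within 1 Mb of either of them. Smarcad1 lies 13254595 bases away on the same chromosome.

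The promoters of the pair are shown because both genes had a like pattern over the 4 groups. RefSeq windows from 250 bases before to 50 after the start (GRCm38.p6) were matched for all 7 symbols. The windows of Reg3b and Reg3g were 68.6% identical in a global alignment, the highest of the 21 pairs of Reg genes, whose median was 49.7%. The stretch from 150 to 22 bases before the RefSeq start is printed 5′ to 3′ on the strand of each gene, chr6:78370735-78370863 on the plus strand for Reg3b and chr6:78468896-78469024 on the minus strand for Reg3g. For Reg3b this stretch lies within the gene span given above, which begins upstream of the RefSeq start. For Reg3g it lies outside the span. Capitals mark a STAT motif (TTCNNNGAA) and a TATA motif (TATAAA).
Reg3b: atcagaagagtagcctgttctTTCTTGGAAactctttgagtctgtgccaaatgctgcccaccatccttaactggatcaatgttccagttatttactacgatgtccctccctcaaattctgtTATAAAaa
Reg3g: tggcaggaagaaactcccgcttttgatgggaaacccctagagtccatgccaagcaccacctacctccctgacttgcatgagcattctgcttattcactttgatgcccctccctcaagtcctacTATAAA
The printed stretches were identical at 83 of 131 alignment columns, 63.4%, and their longest shared run was 11 bases, ccctccctcaa, shortly before the TATA motif. The STAT motif was in Reg3b 129 to 121 bases before the start. No match to it was in the window of Reg3g. Among all 32851 promoter windows, 8.30% held the STAT motif and 13.6% the TATA motif on either strand. Reg3b and Reg3g each had TATAAA on the gene's strand between 29 and 22 bases before the start, and the Reg3g window held a match on the other strand 161 to 156 bases before it. A C/EBP motif (TTGCNNAA), present in 10.8% of all windows, and an AP-1 motif (TGANTCA), present in 7.81%, were looked for on both strands and matched neither gene. Of the relatives in no table, Reg3d also held a STAT motif, 238 to 230 bases before its start. No matches overlapped.

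Reg3b was at 0.38 log2 RPM in WT control, 1.49 in KO control, 10.75 in WT colitis and 9.24 in KO colitis. In reads, the geometric mean per library was 13.2, 27.3, 13796 and 5958 in the same order. Reg3b therefore went from low geometric means in untreated colon to one of the most abundant listed transcripts. Per kilobase of exon it ranked 14 of 5091 listed genes with an annotated length in WT colitis and 70 in KO colitis, after 4208 in WT control and 3631 in KO control.

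Reg3g was at 0.87 log2 RPM in WT control, 1.30 in KO control, 8.62 in WT colitis and 7.65 in KO colitis. The geometric mean per library was 18.5, 24.0, 3140 and 1988 reads. It showed the same order of groups as Reg3b over a smaller range, with WT control lowest and WT colitis highest. Per kilobase of exon it ranked 227 in WT colitis and 490 in KO colitis. Whether neighbouring groups in this order differed beyond the spread between mice was not tested for either gene.

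**Figure D1:**
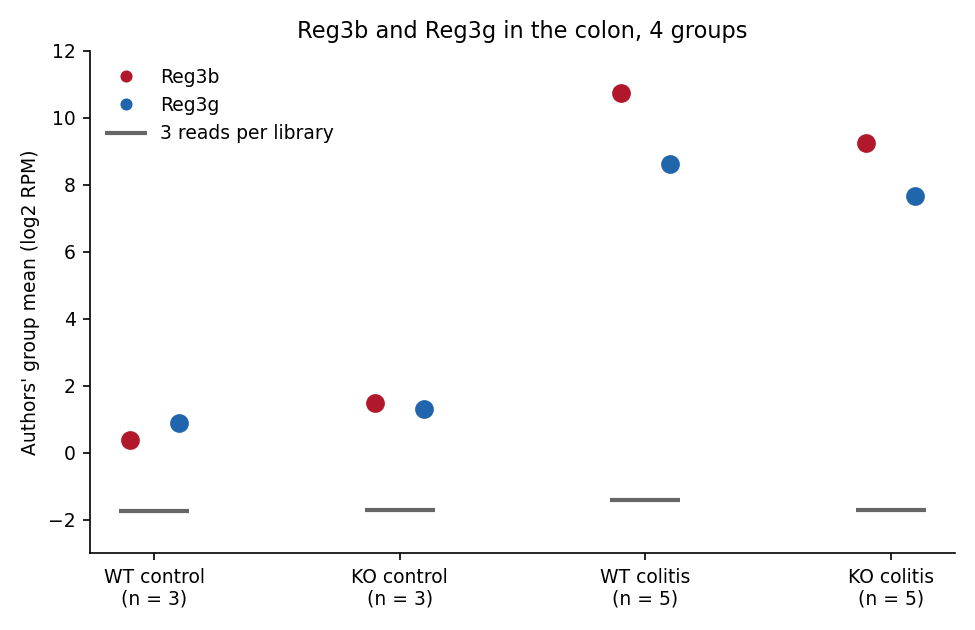
Authors' group means of Reg3b and Reg3g (log2 RPM, vertical axis) in controls (3 libraries per genotype) and in colitis (5 per genotype), with no error bars because single libraries were not in the tables. Grey bars mark 3 reads per library, and both genes lie above them in every group, between 0.38 and 1.49 in controls and between 7.65 and 10.75 in colitis.

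The question in WT mice was how far colitis moved these genes. Reg3b was higher in WT colitis than in WT control by 10.37 on the log2 scale, 1324-fold, and this was the highest value of all 5171 listed genes. Reg3g was higher by 7.74, 214-fold, and ranked second. In KO mice Reg3b was higher in colitis by 7.75, 216-fold, again the highest value, and Reg3g by 6.36, 81.9-fold, ranking 3 after Clca4b. Both genes exceeded a difference of 1 in WT, where 18.4% of the listed genes did, and in KO, where 16.0% did. The median difference of all listed genes was 0.13 in WT and 0.19 in KO. Since the tissue was whole colon, more cells expressing a gene and more RNA per cell cannot be told apart.

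Both genes were absent from the table of colitis against control in KO mice, although their means differed more there than those of nearly all genes. Of the 10 genes with the largest increase in KO, 8 were in that table, and the exceptions were Reg3b and Reg3g. The absence of a gene from a table does not show that its groups were alike, and that a gene was listed in WT and not in KO is no test of a difference between genotypes.

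**Figure D2:**
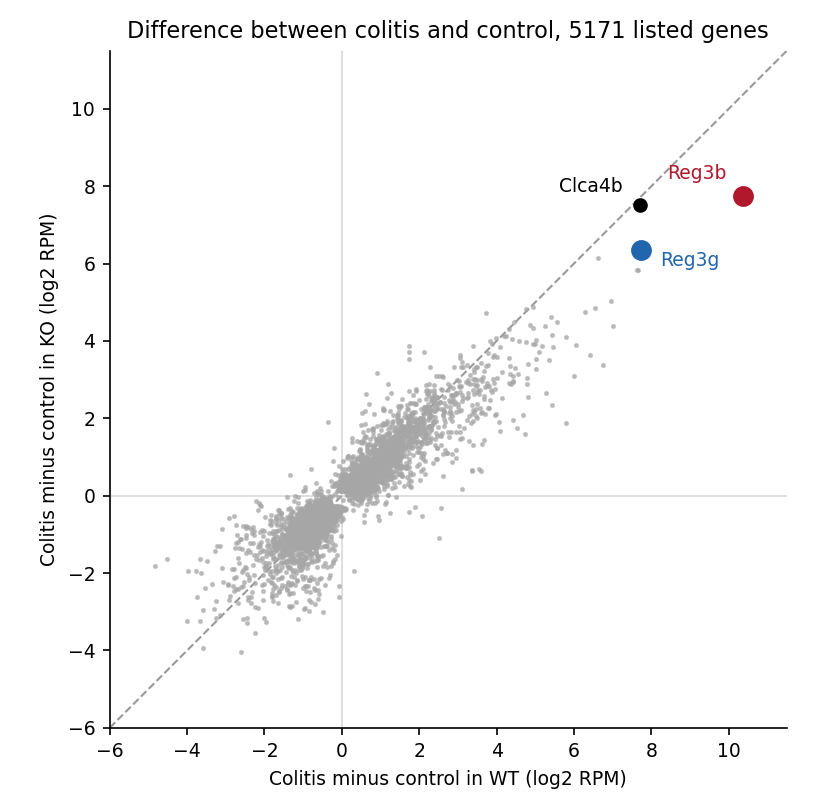
Difference between colitis and control in WT (horizontal axis) and in KO (vertical axis), in log2 RPM, for each of the 5171 listed genes (grey points), with Reg3b, Reg3g and Clca4b marked and a dashed line where both are equal. Reg3b at 10.37 and 7.75 and Reg3g at 7.74 and 6.36 lie at the upper end and below the dashed line.

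The genotypes were then compared within each condition. In controls Reg3b was higher in KO than in WT by 1.11 on the log2 scale, 2.15-fold, and Reg3g by 0.43, 1.34-fold. Of the listed genes 1.08% were higher in KO controls by at least 1, Reg3b among them, and 0.735% were lower by as much. In colitis both were lower in KO, with differences of −1.51 for Reg3b, 2.85-fold, and −0.96 for Reg3g, 1.95-fold. Of all listed genes 2.90% were lower in KO colitis by at least 1, among them Reg3b and not Reg3g, and 1.49% were higher. Counted from the lowest, Reg3b ranked 47 and Reg3g 163 of 5171. Neither gene was in a table of KO against WT, so neither difference passed the authors' threshold.

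The KO change minus the WT change was −2.62 for Reg3b and −1.39 for Reg3g. From the lowest, these ranked 15 and 129 of 5171, and 4.31% of listed genes were at −1 or below and 2.03% at 1 or above. The control means, which were higher in KO, contributed 42.2% of the value of Reg3b and 30.8% of that of Reg3g, and the colitis means the rest. The share of Reg3b moved with 1 KO control library, without which the difference between KO and WT controls would be at most 0.03. This difference of changes was not tested. Both genes were listed through their WT difference, which is part of this value. The WT colitis mean is also part of the genotype difference in colitis. The ranks of both quantities are therefore not free of that selection.

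The low means in controls allowed a closer look at these levels. A mean of log2 values is the logarithm of a product, and for means of few reads the product of the 3 libraries' read counts could be recovered as a whole number. For Reg3b in KO control this product was 20449, which only 8 sets of 3 whole numbers give. In 3 of these sets the reads were 11, 11 and 169, or 11, 13 and 143, or 13, 13 and 121, and in the other 5 the lowest library had 1 read. The KO control libraries therefore did not agree on Reg3b. In every set the lowest library had at most 13 reads and the highest at least 121, a ratio of at least 9.31.

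In WT control the product of Reg3b was 2280, which 46 sets give, and the ratio of the highest to the lowest library could be as small as 1.90. For Reg3g the product was 6336 in WT control and 13860 in KO control, and the ratio could be as small as 1.38 and 1.43. The means of Reg3g thus forced no spread beyond these ratios, although the libraries may have differed by more. Among 338 listed genes with a product from 2000 to 25000 in KO control, the median of this smallest ratio was 1.55. Reg3b had the highest value, and the next was 5.13. Among 303 such genes in WT control the median was 1.5 and the highest value 4.21. The limit depends on how a product can be factored, so a gene with a small limit may still have been spread.

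**Figure D3:**
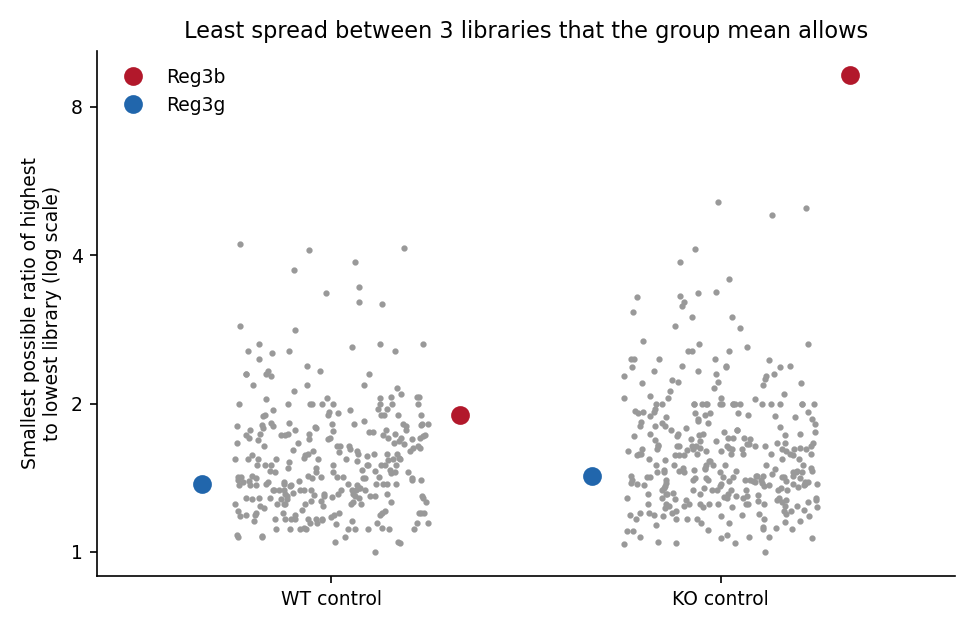
Smallest ratio of the highest to the lowest of the 3 libraries that a gene's group mean allows (vertical axis, log scale) in WT control and KO control, for listed genes with a read product from 2000 to 25000 (grey points, spread sideways for display). Reg3b in KO control, at 9.31, lies above all other points, and Reg3g lies near 1.4 in both groups.

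The comparisons of Reg3b that use KO control moved with 1 library. Without the library with the most Reg3b reads, and with equal library sizes assumed, KO control would be at most 0.41 log2 RPM, next to 0.38 in WT control. The difference between KO and WT controls, 1.11 with all libraries, would be at most 0.03, and in 7 of the 8 possible sets it would be below 0. The increase in KO colitis would be at least 8.83, at least 454-fold. The difference of changes would be no lower than −1.55, and it would stay below 0 in 5 of the 8 sets and be above 0 in the other 3, up to 2.15. Without the library with the fewest reads the control difference would be at least 1.64, the increase in KO at most 7.22 and the difference of changes at most −3.15. The lower level of Reg3b in KO colitis does not involve KO control.

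The pair was also compared with each other per length. With the length of the first annotated transcript of each gene, 783 bases for Reg3b and 771 for Reg3g, the level of Reg3b minus that of Reg3g was −0.51 in WT control, 0.16 in KO control, 2.11 in WT colitis and 1.56 in KO colitis on the log2 scale. Reg3b was thus the more abundant gene in colitis of both genotypes, 4.33-fold in WT and 2.95-fold in KO. With the union of all annotated exons, 1142 and 2114 bases, the same values were 0.40, 1.08, 3.02 and 2.47, so which gene was higher in WT control depended on the length used. Summed from the geometric group means, the pair stood at 0.212% of reads in WT colitis and 0.0805% in KO colitis. The same sum was 0.00031% and 0.00053% in WT and KO controls. These are not shares of the reads of all libraries added together.

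Signals that act upstream of Reg3 genes were taken from a list of 18 cytokines and sensors, of which 13 were in a table. Of these, 9 were higher by at least 1 in colitis in WT and 9 in KO, beside 18.4% and 16.0% of all listed genes. None of the 13 was lower by as much. Their median difference was 3.38 in WT and 2.73 in KO, or 1.86 and 1.18 with means under the floor raised to 3 reads. Il22, the main inducer of Reg3 genes, had 0 reads in all 3 libraries of both control groups. In colitis it reached a geometric mean of 6.79 reads in WT and 6.89 in KO, at least 2.86-fold and at least 2.27-fold over the floor, and exactly 1 of the 5 KO colitis libraries had 0 reads. The level of Il22 in log2 RPM differed between genotypes in colitis by −0.28, at a depth of a few reads that could not resolve such a difference.

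Il17a and Il6 also had 0 reads in every control library. Il17a, which acts together with Il22 on epithelial cells, reached 8.63 reads in WT colitis and 4.02 in KO colitis, and its level differed by −1.40 on the log2 scale between KO and WT. That difference also rests on a few reads, since the lowest KO colitis library had at most 2. Il6, an activator of Stat3, reached 47.5 and 13.4 reads, a difference of −2.13 in log2 RPM. Il11, another Stat3-activating cytokine of the Il6 family, was at 4.22 log2 RPM in WT colitis and 2.07 in KO colitis. The inflammatory cytokine Il1b was at 6.53 and 5.31, Tnf at 4.02 and 3.78, and Osm, which signals through a receptor related to that of Il6, at 2.26 and 1.40. In colitis 10 of the 13 listed genes were lower in KO than in WT, 4 of them (Il17a, Il6, Il11 and Il1b) by at least 1. The same held for 52.6% of all listed genes, and for 2.90% by at least 1.

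Receptors and Stat3 signalling genes moved less. Of a list of 18, 10 were in a table, of which 5 were higher by at least 1 in WT and 2 in KO, and 1 was lower in WT, with medians of 0.84 and 0.60. Of all listed genes 18.4% in WT and 16.0% in KO were higher by at least 1, and 13.0% were lower in WT. Socs3, a feedback inhibitor induced by Stat3, was higher in colitis of both genotypes, by 3.43 in WT and 2.62 in KO. Socs1, its relative in interferon signalling, was higher by 2.18 and 2.23, and Pim1, a kinase gene induced by Stat3, by 1.01 and 0.68. The Oncostatin M receptor Osmr was higher by 1.11 and 0.82, and Nfkbiz, a nuclear regulator that acts downstream of Il17a, by 1.20 and 0.93. Il22ra2, which encodes a soluble inhibitor of Il22, differed in the other direction, with −1.84 in WT and −0.51 in KO, and was 1.43 higher in KO colitis than in WT colitis. The signalling chain of the Il22 receptor, Il22ra1, was at −0.98 in WT and −0.92 in KO, and Stat3 itself at 0.68 and 0.49.

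Other genes that respond to Stat3 or Il22 in epithelium showed the direction of the Reg3 pair. Of a list of 24, 21 were in a table, of which 19 were higher by at least 1 in WT and 18 in KO, and none lower, with medians of 2.54 and 2.26. Of all listed genes 18.4% in WT and 16.0% in KO were higher by at least 1. In colitis 19 of the 21 were lower in KO than in WT, 8 of them by at least 1, beside 52.6% and 2.90% of all listed genes. The 8 were Saa3, Lcn2, S100a8, S100a9, Cxcl1, Cxcl5, Fpr2 and Timp1. Over the 21 the median difference was −0.39, with Duox2 at −0.49, Fut2 at −0.29 and Muc13 at −0.02. Muc1 and Pla2g5 were higher in KO, by 0.42 and 0.21. Which cells of the whole tissue gave these values was not tested. Saa3, an acute phase protein that binds retinol, was at 7.78 log2 RPM in WT colitis and 5.77 in KO colitis, and was higher than in control by 6.95 in WT and 5.04 in KO. S100a8 and S100a9 form the metal-binding complex calprotectin, and differed between KO colitis and WT colitis by −2.66 and −2.77 on the log2 scale. Both are made mainly by neutrophils and stand in the neutrophil list as well. The neutrophil attractants Cxcl1 and Cxcl5 were lower in KO colitis, with differences of −1.23 and −1.61. Nos2, which makes nitric oxide, differed little, with an increase in colitis of 4.44 in WT and 4.48 in KO.

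**Figure D4:**
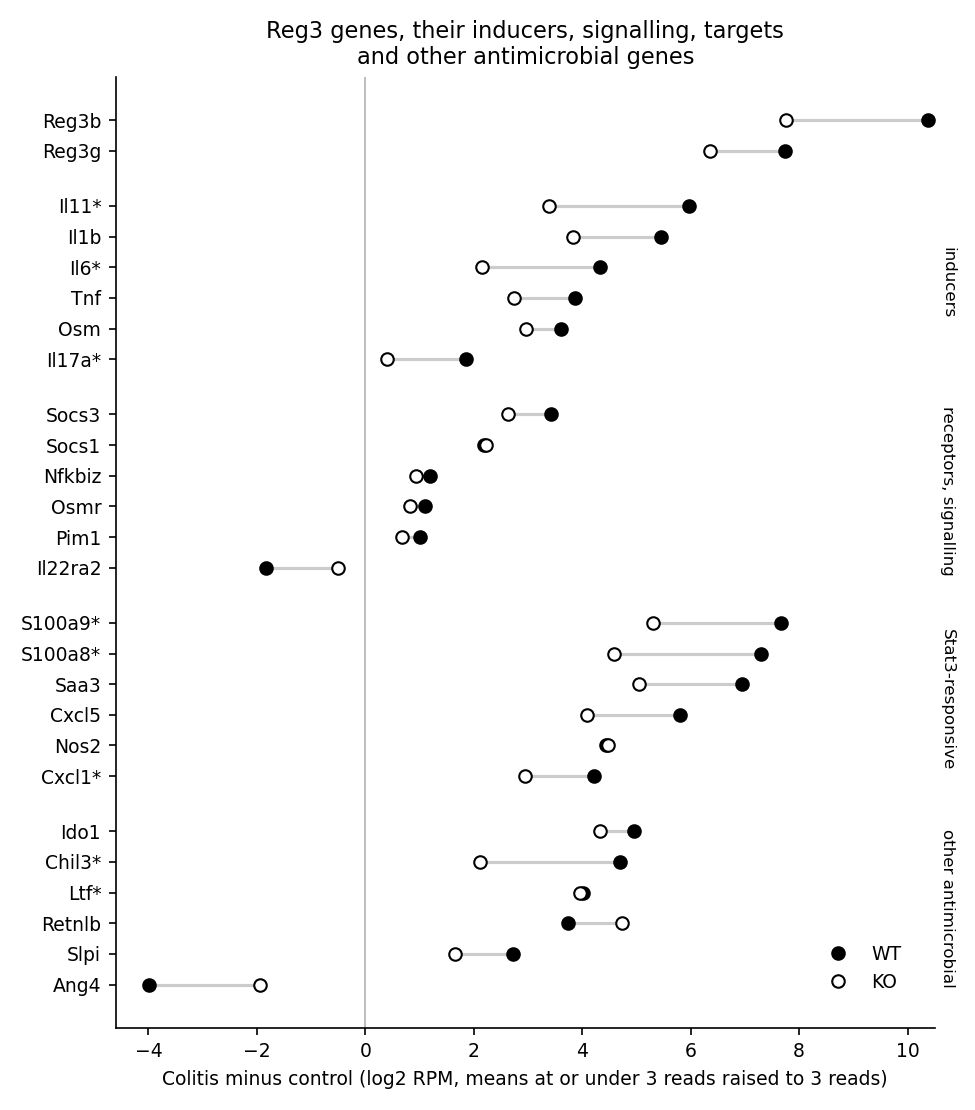
Difference between colitis and control (log2 RPM, horizontal axis, with means at or under 3 reads raised to 3 reads) in WT (filled) and KO (open) for the Reg3 pair and up to 6 genes each of 4 lists. A star marks genes with a control mean at or under 3 reads. Reg3b, Reg3g, Saa3, Cxcl5 and the inducers shown have the open point to the left of the filled one, Nos2 and Socs1 do not. The genes shown were picked by the size of their WT difference, which favours larger values in WT. Of all 13 listed inducers and sensors, the KO change minus the WT change was below 0 in 10 and above 0 in 3. Il12b and Il18, which are not shown, were among the latter.

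Antimicrobial proteins of other families did not share one direction. Of a list of 28, 15 were in a table, of which 9 were higher and 4 lower by at least 1 in WT colitis, and 7 higher and 3 lower in KO. The list also holds Nos1, a nitric oxide synthase rather than an antimicrobial protein, which counted as lower in both, at −1.05 and −1.47. The others lower in WT were Ang4, Retnla and Wfdc2, at −3.98, −2.15 and −1.43. Genes lower by at least 1 were 13.0% of all listed genes in WT and 12.6% in KO, and those higher by as much 18.4% and 16.0%. Ang4, a bactericidal ribonuclease of goblet and Paneth cells, was at 7.95 log2 RPM in WT control, 6.36 in KO control, 3.97 in WT colitis and 4.41 in KO colitis, opposite to the Reg3 pair. Retnlb, a goblet cell protein that also acts on bacteria, was higher in WT colitis by 3.73 and in KO colitis by 4.73, while its level in KO control minus that in WT control was −1.83. The protease inhibitor Slpi was higher by 2.73 in WT and 1.65 in KO, and Ido1, which degrades tryptophan, by 4.95 and 4.32. Chil3, a chitinase-like protein of myeloid cells, differed between KO colitis and WT colitis by −2.53, and Ltf, which encodes the iron-binding lactoferrin, differed by −0.02.

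Markers of the cells in the tissue were compared beside these values. None of the 8 general epithelial markers was in a table, so the share of epithelium could not be read from them. Of 6 colonocyte markers, 5 were listed, all at 7.85 log2 RPM or above, and their summed level was 9319 and 8939 RPM in WT and KO controls and 4743 and 4778 in WT and KO colitis. Absorptive colonocyte markers thus differed in the opposite direction to the Reg3 pair in colitis. None of the 11 pancreatic acinar markers was listed, 1 of the 6 Paneth markers (Mmp7), 1 of the 7 goblet markers (Clca1) and 2 of the 7 small intestinal markers (Fabp2 and Fabp6). Stem cell markers were listed for 3 of 4 and did not share one direction in colitis. Ascl2 differed by −1.85 in WT and −0.62 in KO, Axin2 by −1.27 and −0.81, and Smoc2 by 0.28 and 0.41.

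Neutrophil markers, like the Reg3 pair, were higher in colitis in both genotypes. The 5 listed of 9, S100a8, S100a9, Csf3r, Cxcr2 and Ltf, had a summed level of 2.38 RPM in WT control, 2.81 in KO control, 174 in WT colitis and 44.1 in KO colitis. In WT colitis S100a9 and S100a8, at 6.36 and 5.54 log2 RPM, made up most of the sum. In controls the markers did not share the direction of the pair between genotypes. S100a8 and S100a9 differed between KO and WT by −0.87 and −0.94, near or under the floor, and Csf3r by 0.57. Mpo, Elane, Camp and Ngp were in no table. All 5 were lower in KO colitis than in WT colitis, with a median difference of −1.67, beside −1.51 for Reg3b and −0.96 for Reg3g. Ltf was nearly level between genotypes, at −0.02, and 52.6% of all listed genes were below 0. The 5 of 6 listed lymphocyte markers summed to 222 RPM in WT colitis and 216 in KO colitis, after 106 and 102 in controls. The part of these cells in the values of the Reg3 pair was not tested.

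The genes with the most similar pattern over the 4 groups were looked up among the listed genes, by the Euclidean distance between group means centred on each gene's own mean. For Reg3b they were Clca4b, Reg3g, S100a8, S100a9 and Gm4841, at distances from 1.90 to 2.91, so even the nearest differed from it by more than Clca4b did from Reg3g. For Reg3g they were Clca4b at 0.82, Gm4841 at 0.88, then Saa3, Cxcr2 and S100a8. Clca4b, a member of the calcium-activated chloride channel regulator family, was at 2.5 log2 RPM in WT control, 2.35 in KO control, 10.20 in WT colitis and 9.87 in KO colitis. Its difference between genotypes in colitis, −0.33, was smaller than that of either Reg3 gene. The likeness is over 4 group means and is a description. Gm4841, Cxcr2 and S100a8 were at or under 3 reads in both control groups, so their distances rest partly on such means. With these raised to 3 reads, 4 of the 5 genes were shared for each Reg gene. Gm4841 then left the genes of Reg3b and was last of those of Reg3g, which Cxcr2 left. With Pearson's correlation as the measure, 0 of the 5 genes were shared for either Reg gene.

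**Figure D5:**
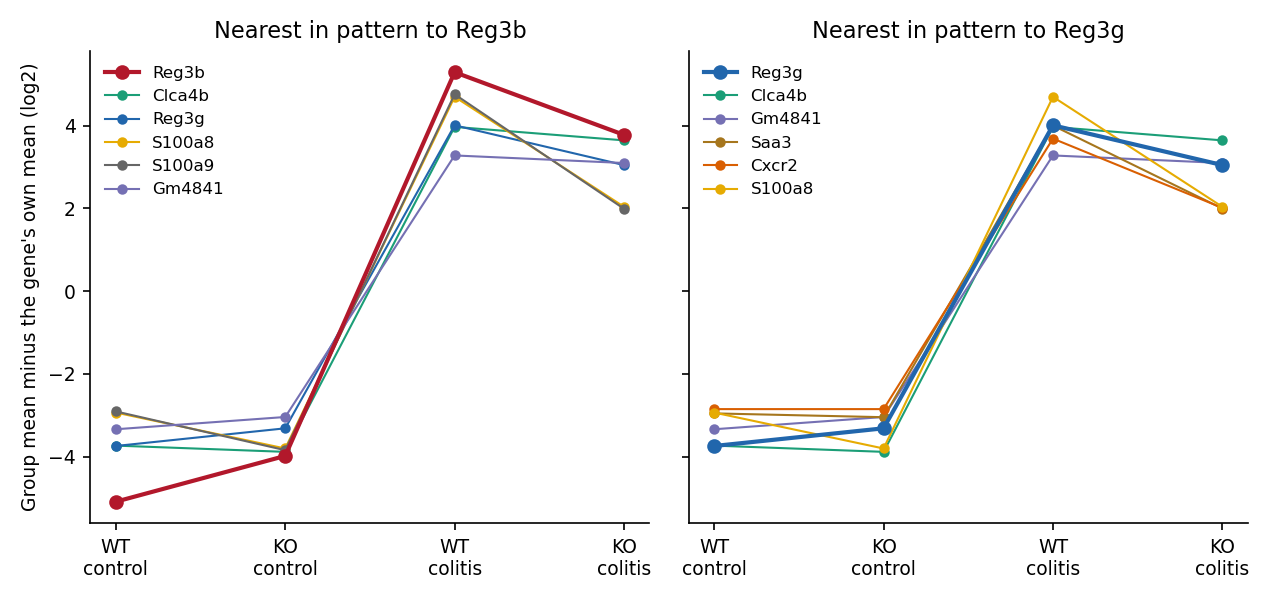
Group means minus each gene's own mean (log2, vertical axis) in the 4 groups for Reg3b (left) and Reg3g (right) and the 5 genes nearest to each. Reg3b has the widest range, with WT control lowest, and Clca4b and Gm4841 are nearly level between WT colitis and KO colitis.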

How the data were processed

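RNA-seq libraries of whole colon (16 in 4 groups, named by sample titles) were sequenced on the BGISEQ500, as single-end reads per the labels and as paired-end reads per the study's methods. The authors mapped them to GRCm38 with HISAT2 2.1.0, kept uniquely mapped reads, counted reads over exons in SeqMonk, removed ribosomal RNA reads because 3 samples were contaminated, and ran DESeq2. Unique mapping can leave out reads of near-identical Reg copies.

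Each deposited table lists the genes that 1 DESeq2 comparison called at 0.05, with an adjusted p-value column that was not used, and 4 log2 group means of RPM made by the authors. Values of single libraries were not used here, and those in the study's supplement were left out because only the deposited tables were analysed. Group means allow no test, so none was run.

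Differences of means were computed in Python 3.11.15 (pandas 2.3.3, numpy 2.4.6). A count of 0 had entered as 0.9 read, which gave library sizes. All low means lay on whole-read steps, 421 in controls of WT and 416 of KO, and 150 in colitis of WT and 139 of KO. Products up to 25000 were resolved into sets of reads within 2 ppm, a step tested on simulated reads. The floor of 3 reads covers counting error only, and a log2 difference of 1 was the fold used. Coordinates are GRCm38, with GENCODE exons, and promoter windows are from RefSeq (GRCm38.p6), aligned with Biopython 1.88. Labels name the colon as source.

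The Reg symbols, gene lists and alternatives were chosen with earlier results of these data known. Named were all Reg symbols, Smarcad1, up to 6 genes per list with the largest WT difference and a mean above 3 reads, and the 5 nearest genes in pattern. Il22, Il22ra1 and Stat3 were added for their role after their values were seen. 1 gene of the signalling list is not reported here and was left out of its counts.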

Additional observations from a re-analysis of the deposited data

How the results depend on the processing

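Over 46 values and 92 alternatives, 22 of them chosen after seeing the data, 61 kept their value within the set limit, 29 moved and 2 changed direction. Part of the 61 could not move. All 5171 listed genes had a group mean above 3 reads, so a filter at that level removed none. Both Reg genes were above 3 reads in every group, so raising low means left their differences unchanged. The 61 are therefore no measure of stability. No paired analysis was possible because the tables hold 1 mean per group and no replicate columns, and leaving out each library in turn was limited to the sets of reads above. Scaling to general epithelial markers was not run, since none is listed. Relative to the colonocyte median, Reg3b in colitis was higher by 11.20 in WT and 8.38 in KO, and Reg3g by 8.58 and 6.99. Over the possible sets of reads, with equal library sizes assumed, leaving out the KO control library with the most Reg3b reads put the increase in KO between 8.83 and 12.53, the control difference between −3.67 and 0.033 and the difference of changes between −1.55 and 2.15, so the latter 2 can turn. Leaving out the one with the fewest reads put them between 5.37 and 7.22, between 1.64 and 3.49 and between −5.01 and −3.15. At a log2 difference of 2, 7.14% of listed genes were higher and 2.32% lower in WT colitis, 5.84% and 2.48% in KO colitis, 0.193% and 0.0193% in KO against WT controls and 0.271% and 0.522% in KO against WT colitis. With means under 3 reads raised to 3 reads, list medians in WT and KO colitis were 1.86 and 1.18 for inducers and 4.85 and 3.95 for neutrophils, and 2.15 in WT for Stat3-responsive genes. By Pearson's correlation, 0 of the 5 nearest genes of Reg3b and 0 of those of Reg3g were shared. The 2 changes of direction both came from leaving out the KO control library with the most Reg3b reads. Control levels of 13 to 27 reads limit the ratios that use a control mean of Reg3b or Reg3g.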
